A study of Mus musculus with 12 samples.

Results

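The 9 genes examined here belong to the Hedgehog and parathyroid hormone-related protein (PTHrP) pathways and were followed across 12 bead arrays of mouse femoral head cartilage. They were taken by gene symbol, as every probe whose symbol was Ihh, Pthlh, Ptch1, Smo, Hhip, Gli1, Gli2, Gli3 or Sufu, which gave 9 of the 34509 symbols and 17 of the 46632 probes on the array. Of these, 13 probes for 8 genes were above background on at least 4 arrays and entered the comparisons, as did 39% of all probes. The single Gli1 probe was detected on 0 of 12 arrays.

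The explants were hips of 21-day-old TS-4/5∆cat mice, in which in-frame deletions remove the catalytic exon of both Adamts4 and Adamts5. The untreated group carries both deletions too, and no wild-type explants were analysed here. Explants were left untreated, or were given 10 ng/ml IL-1α (the inflammatory cytokine interleukin-1α) or 10 µM retinoic acid (the active form of vitamin A) for 3 days. Each treatment had 4 arrays, 2 from the mouse line named Donut and 2 from the line named Gertrude, and these lines coincide with batch 1 and batch 2, so line and batch cannot be told apart. The labels give 4 hips per well and do not say whether an array holds 1 animal or several, and the study's methods describe fewer separate mice for each treatment than there are arrays here. Arrays of a treatment may therefore share an animal, and the p-values below measure the spread between these arrays.

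In growing cartilage, Indian hedgehog (Ihh) is secreted by prehypertrophic chondrocytes, those about to enlarge and mineralise. It binds the receptor Patched 1 (Ptch1), which then releases its block on Smoothened (Smo), and the signal passes through the primary cilium to the GLI transcription factors. PTHrP, encoded by Pthlh, is made by cells near the joint surface in response to Ihh and keeps chondrocytes proliferating, which closes a feedback loop that sets how far from the surface hypertrophy begins. Ptch1, Gli1 and Hhip are direct targets of the pathway as well as components of it, so their messenger levels are often read as a measure of Hedgehog activity.

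The stretches of DNA just before the transcription start of 8 of the 9 genes were read from RefSeq promoter sequence of mouse build GRCm38.p6. Those of 5 genes are shown, each 250 bases long and written 5′ to 3′ on the gene's own strand: those of both ligands, of both pathway targets that could be measured, and of Sufu, which moved in no comparison. They lie at chr1:74951673-74951922 for Ihh, chr6:147264014-147264263 for Pthlh, chr13:63565736-63565985 for Ptch1 and chr8:80058009-80058258 for Hhip, all on the minus strand, and at chr19:46396646-46396895 for Sufu, on the plus strand. Capitals mark GC boxes (GGGCGG on either strand) and, in Hhip, the palindromic cAMP response element TGACGTCA.
Ihh: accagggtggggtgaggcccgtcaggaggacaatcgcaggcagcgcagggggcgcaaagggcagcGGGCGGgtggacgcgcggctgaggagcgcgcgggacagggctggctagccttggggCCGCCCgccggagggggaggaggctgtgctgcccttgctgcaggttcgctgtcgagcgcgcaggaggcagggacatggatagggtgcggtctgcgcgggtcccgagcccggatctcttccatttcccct
Pthlh: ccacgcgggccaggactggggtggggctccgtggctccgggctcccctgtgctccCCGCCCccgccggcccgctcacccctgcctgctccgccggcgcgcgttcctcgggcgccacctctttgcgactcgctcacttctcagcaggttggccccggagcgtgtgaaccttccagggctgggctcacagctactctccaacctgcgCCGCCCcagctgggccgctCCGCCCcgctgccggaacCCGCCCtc
Ptch1: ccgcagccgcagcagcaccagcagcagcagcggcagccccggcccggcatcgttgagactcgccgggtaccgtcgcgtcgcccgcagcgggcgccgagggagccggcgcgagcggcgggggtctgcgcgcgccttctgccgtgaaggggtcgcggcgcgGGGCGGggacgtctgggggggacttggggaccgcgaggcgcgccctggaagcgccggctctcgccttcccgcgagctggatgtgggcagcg
Hhip: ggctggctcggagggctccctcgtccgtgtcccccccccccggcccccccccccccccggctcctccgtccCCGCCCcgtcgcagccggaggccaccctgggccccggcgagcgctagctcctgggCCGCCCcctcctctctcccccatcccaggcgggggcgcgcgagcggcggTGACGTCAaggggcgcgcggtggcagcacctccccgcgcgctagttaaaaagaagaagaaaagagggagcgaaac
Sufu: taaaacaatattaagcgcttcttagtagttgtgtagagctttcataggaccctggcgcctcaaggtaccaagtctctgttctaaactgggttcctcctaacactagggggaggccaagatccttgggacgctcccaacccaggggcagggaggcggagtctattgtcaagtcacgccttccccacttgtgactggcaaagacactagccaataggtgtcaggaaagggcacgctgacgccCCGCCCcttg

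The promoters of Ihh, Pthlh, Ptch1 and Hhip were rich in G and C, at 72%, 75.2%, 78.4% and 76%, whereas that of Sufu had 54%, close to the median of 52.4% over 32851 mouse promoters. A GC box stood in 7 of the 8 members' windows, Smo being without one, and in 32.7% of all windows. The TGACGTCA of Hhip began 75 bases before the start, and this motif, searched after the sequences had been read, was found in 1.55% of all windows. The GLI motif GACCACCCA, its core CCACCCA and a retinoic acid response element (AGGTCA or AGTTCA, then the same again after a gap of 5 bases) were each in 0 of these 8 windows, against 0.225%, 8.11% and 0.0335% of all windows. This says only that these letters are not in these windows.

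Signals were neqc-normalised intensities on the log2 scale (described under the processing), on which a difference of 1 is a doubling or halving, and the levels of different probes were not set against each other. Arrays of the same treatment and batch correlated at 0.983 to 0.995 over all kept probes. Across batches, arrays given the same treatment correlated at 0.868 to 0.902, and 76.3% of kept probes differed between the batches at an adjusted p under 0.05. Every comparison of treatments was therefore made with batch and replicate in the fit. Differences within each batch are given for some probes only. Batch 1 arrays detected 13786 to 14965 probes and batch 2 arrays 16732 to 19485.

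The treatments left their own marks and altered the make-up of the messenger pool. All 4 retinoic acid response genes examined (Cyp26a1, Cyp26b1, Rarb and Dhrs3) rose with retinoic acid, and 2 of the 3 IL-1α response genes measured rose with IL-1α (Nos2 and Lcn2, with Mmp3 not called). Cartilage chondrocyte markers (Col2a1, Acan, Matn1 and others, 8 measured of 9) fell in 8 of 8 with retinoic acid and in 6 of 8 with IL-1α, and their summed intensity was 62400 to 74000 on untreated arrays, 35300 to 47100 with IL-1α and 10100 to 15300 with retinoic acid. Markers of prehypertrophic and hypertrophic chondrocytes, the source of Ihh, were lower in 4 of 7 with either treatment, namely Col10a1, Ibsp, Alpl and Panx3, while Spp1 (0.52, adjusted p = 0.0217) and Vegfa (0.56, adjusted p = 0.00288) were higher with retinoic acid. Their sums ran from 33800 to 45800, from 22900 to 33900 and from 24200 to 35000 in the same order. Fibroblast and perichondrium markers were lower in 5 of 5 measured with IL-1α and in 3 of 5 with retinoic acid, where Pdgfra was higher (sums 1150 to 1960 untreated, 611 to 670 and 1320 to 3160). Of bone cell markers 2 of 3 measured (Sp7 and Phex) and of adipocyte markers 2 of 2 (Adipoq and Cfd) were lower with each treatment, and of endothelial markers 2 of 4 (Pecam1 and Cdh5) were lower with IL-1α and 0 were called with retinoic acid. Of 4 blood cell markers measured, Cd68 was higher with both treatments, Csf1r was higher with retinoic acid and Lyz2 was lower with IL-1α. Of the markers in these lists Matn3, Postn, Dmp1, Sost, Ptprc, Itgam, Plin1 and Fabp4 were detected on 0 arrays. In whole explants, fewer cells of a type and less messenger per cell cannot be told apart, and the part of these shifts in the results below was not tested.

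With retinoic acid, 8 of the 13 probes of the pathway genes were lower than in untreated explants, 0 were higher and 5 were not called (limma, Benjamini-Hochberg adjusted p under 0.05), against 17.1% of all kept probes lower and 18.2% higher. The median difference of the 13 was -0.73 and that of all kept probes 0.02. With IL-1α, 9 of 13 were lower, 0 were higher and 4 were not called, against 14.1% of all kept probes lower and 15.2% higher, with medians of -0.61 and 0.02. Taking the brightest probe of each gene, 5 of 8 genes were lower with retinoic acid (Ihh, Ptch1, Smo, Hhip and Gli2) and 7 of 8 with IL-1α (these with Pthlh and Gli3), against 18.1% and 15% of all 14317 genes taken the same way. The 4 treated arrays all lay below the 4 untreated ones for 5 of 13 probes with retinoic acid and for 6 with IL-1α, against 8.41% and 6.55% of all kept probes. Both counts rest on the same untreated arrays.

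**Figure D1:**
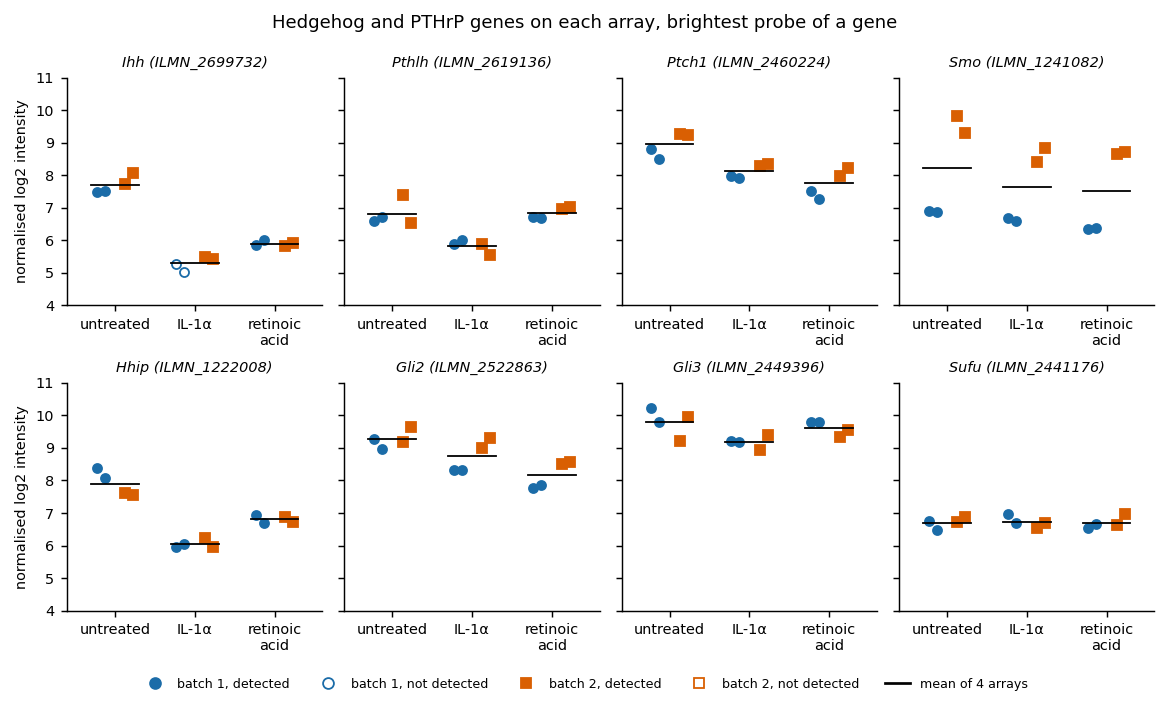
Normalised log2 intensity of the brightest kept probe of 8 genes on each of the 12 arrays, by treatment, with batch 1 as circles, batch 2 as squares, open symbols where the probe was not detected and a line at the mean of 4 arrays. Ihh and Hhip fell from untreated (means 7.70 and 7.90) to retinoic acid (5.90 and 6.81) and further to IL-1α (5.30 and 6.05), whereas Sufu stayed between 6.47 and 6.98 throughout.

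Ihh, the ligand, showed the greatest difference from untreated of the 13 probes in both treatments. Its brighter probe, ILMN_2699732, gave 7.49 and 7.50 for batch 1 and 7.72 and 8.08 for batch 2 without treatment. It read 5.86, 6.02, 5.81 and 5.91 with retinoic acid and 5.26, 5.03, 5.50 and 5.41 with IL-1α, in the same order. All treated arrays lay below all untreated ones, and both batch 1 arrays with IL-1α were not above background.

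Ihh by this probe was 3.48-fold lower with retinoic acid (log2 difference -1.80, standard error 0.14, adjusted p = 4.51e-07) and, as measured, 5.28-fold lower with IL-1α (-2.40, standard error 0.14, adjusted p = 1.19e-07). The IL-1α mean rests on 2 of 4 arrays at background, and in batch 2, where Ihh was detected on every array, the difference was -2.45. Retinoic acid explants held, as measured, 1.52-fold more Ihh than IL-1α explants (0.60, adjusted p = 0.00483), with all 4 arrays above all 4, although batch 2 taken alone gave 0.40 (adjusted p = 0.107). Within batches the retinoic acid difference was -1.56 and -2.04. Leaving out any 1 array kept it between -1.93 and -1.69 and the IL-1α difference between -2.48 and -2.28, with the call kept each time. An exact two-sided permutation test of 4 against 4 arrays gave p = 0.0286 for each of these comparisons, the smallest p that 4 against 4 allows.

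A second Ihh probe, ILMN_1253961, gave the same order of treatments with a strong batch component. It read 7.96 and 7.76 in batch 1 but 5.37 and 6.22 in batch 2 without treatment. With retinoic acid it read 6.78 and 6.97 in batch 1 and was not above background in batch 2, at 4.66 and 4.76, and with IL-1α it was not above background on any array. Its level was 1.52 lower in batch 2 (adjusted p = 3.82e-05), where the first probe differed between batches by 0.21 (adjusted p = 0.0818). Treated arrays lay below the untreated arrays of their own batch in both treatments.

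By this second probe Ihh was at least 2.98-fold lower with IL-1α over both batches pooled (means 6.83 and 4.75, adjusted p = 0.000438). The bound was set by the dimmest signals called detected on each array. As measured, the log2 difference was -2.94 in batch 1 and -1.20 in batch 2, so the bound does not describe batch 2 alone. The retinoic acid difference was -1.03 (standard error 0.32, adjusted p = 0.0241). It was no longer called, at adjusted p up to 0.1 and differences from -1.02 to -0.81, without untreated batch 1 replicate 1 or 2, untreated batch 2 replicate 2, or retinoic acid batch 2 replicate 1 or 2. Retinoic acid and IL-1α differed by 1.95 in batch 1 and by 0.13 in batch 2, where neither was above background, so no fold is given over both batches. The pooled difference of 1.04 (adjusted p = 0.026) was no longer called, at adjusted p up to 0.107, when any 1 batch 1 array of either treatment was left out.

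Pthlh, the PTHrP gene, separated the treatments. Its probe read 6.60, 6.72, 7.39 and 6.52 on untreated arrays, 6.71, 6.70, 6.95 and 7.02 with retinoic acid, and 5.88, 6.02, 5.89 and 5.55 with IL-1α. The IL-1α arrays lay below all others, and those with retinoic acid overlapped the untreated ones. Pthlh was 1.96-fold lower with IL-1α (-0.97, standard error 0.16, adjusted p = 0.00071), while retinoic acid differed from untreated by 0.04 (standard error 0.16, adjusted p = 0.884). Retinoic acid explants had 2.01-fold more Pthlh than IL-1α explants (adjusted p = 0.00034, exact permutation p = 0.0286). Beside this, all 4 proliferation markers (Mki67, Top2a, Ccnb1 and Cdk1) were lower with IL-1α and 0 of 4 were called with retinoic acid. Their IL-1α differences were -0.62 to -0.16 in batch 1 and -1.54 to -1.08 in batch 2 and varied between batches for each (adjusted p 0.00561 to 0.0456), whereas Pthlh differed by -0.71 and -1.23. Of the 2 joint surface markers measured, Prg4 differed by -0.59 with retinoic acid (adjusted p = 0.00118) and 0.00 with IL-1α, and Ecrg4, named 1500015O10Rik on the array, by -4.93 (adjusted p = 3.28e-08) and -1.51 (adjusted p = 0.00143). The part of these in the Pthlh result was not tested.

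Ptch1, the receptor and a pathway target, fell in both treatments, and slightly further with retinoic acid. Probe ILMN_2460224 read 8.80, 8.49, 9.28 and 9.25 untreated, 7.53, 7.28, 7.98 and 8.23 with retinoic acid, and 7.99, 7.91, 8.29 and 8.33 with IL-1α. All arrays of each treatment were below all untreated arrays. The difference was -1.20 with retinoic acid (2.3-fold, standard error 0.12, adjusted p = 4.95e-06) and -0.83 with IL-1α (1.78-fold, adjusted p = 0.000237). Retinoic acid was below IL-1α by a difference of -0.37 (adjusted p = 0.0298), a call lost at adjusted p up to 0.136 without any 1 batch 1 array of either treatment or without retinoic acid batch 2 replicate 1. A second probe, ILMN_1248463, was near background, detected only on the 6 batch 2 arrays, with no comparison called.

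Hhip encodes a membrane protein that captures Hedgehog ligands and is itself induced by the pathway. Its measured probe read 8.37, 8.07, 7.60 and 7.56 untreated, 6.95, 6.69, 6.89 and 6.71 with retinoic acid, and 5.97, 6.06, 6.22 and 5.95 with IL-1α. The 3 treatments did not overlap at any array. Hhip was 2.13-fold lower with retinoic acid (-1.09, standard error 0.16, adjusted p = 0.000124) and 3.61-fold lower with IL-1α (-1.85, adjusted p = 2.92e-06), and retinoic acid exceeded IL-1α 1.69-fold (adjusted p = 0.00226). A second probe was detected only on the untreated batch 2 arrays, at 5.20 and 5.44, and was not tested.

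Smo, the transducer that Ptch1 restrains, gave probes that disagreed between batches. Without treatment ILMN_1241082 gave 6.91 and 6.88 for batch 1 and 9.83 and 9.31 for batch 2, 6.34 and 6.38 against 8.65 and 8.72 with retinoic acid, and 6.69 and 6.59 against 8.41 and 8.85 with IL-1α. Treated arrays lay below the untreated arrays of their own batch in both treatments. Its level was 2.33 higher in batch 2 (adjusted p = 1.77e-10), and its treatment differences were -0.71 for retinoic acid (adjusted p = 0.00538) and -0.60 for IL-1α (adjusted p = 0.0186). The IL-1α call was lost without IL-1α batch 2 replicate 1 (-0.40, adjusted p = 0.0714).

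The other Smo probe, ILMN_2741614, did not differ by batch in level (-0.17, adjusted p = 0.506) but did in its response. In batch 1 it read 7.07 and 7.34 untreated, 7.15 and 7.27 with retinoic acid, and 7.58 and 7.48 with IL-1α. In batch 2 it read 8.04 and 8.22 untreated, 6.10 and 6.39 with retinoic acid, and 7.16 and 6.96 with IL-1α. The retinoic acid difference was thus 0.01 in batch 1 and -1.89 in batch 2 (difference between batches -1.90, adjusted p = 0.00101), and that for IL-1α was 0.33 and -1.07 (-1.40, adjusted p = 0.00623). Over both batches retinoic acid gave -0.94 (adjusted p = 0.0263), a call lost at adjusted p up to 0.129 and differences from -0.79 to -0.65 without any 1 batch 2 array of the untreated or retinoic acid group. In batch 2 both Smo probes were thus below untreated with each treatment, and in batch 1 the first probe alone was.

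**Figure D2:**
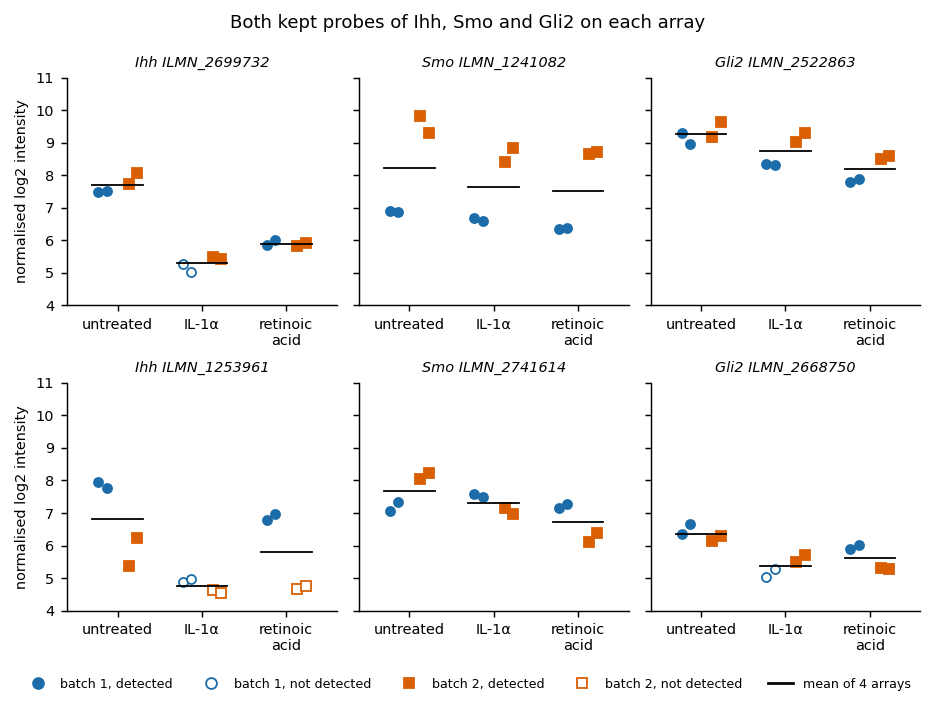
Normalised log2 intensity of both kept probes of Ihh, Smo and Gli2 on the 12 arrays (upper row, brighter probe), with symbols as in the plot of all genes by array. The second Ihh probe and the brighter Smo probe differ between batches by -1.52 and 2.33, and the second Smo probe falls with treatment in batch 2 but not in batch 1.

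Gli2, the main activating GLI factor, was lower in both treatments. ILMN_2522863 read 9.29, 8.96, 9.19 and 9.63 untreated, 7.78, 7.87, 8.50 and 8.58 with retinoic acid, and 8.33, 8.32, 9.01 and 9.30 with IL-1α. Retinoic acid arrays lay below all untreated arrays, and IL-1α arrays overlapped them in batch 2. The differences were -1.09 for retinoic acid (2.12-fold, standard error 0.14, adjusted p = 5.67e-05) and -0.53 for IL-1α (adjusted p = 0.0134), and retinoic acid was 0.55 below IL-1α on the log2 scale (-0.55, adjusted p = 0.00901). The IL-1α call was lost, at adjusted p of 0.0624, 0.0571 and 0.0514, without untreated batch 1 replicate 1 or IL-1α batch 1 replicate 1 or 2.

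The dimmer Gli2 probe, ILMN_2668750, read 6.36, 6.66, 6.13 and 6.29 untreated, 5.88, 6.02, 5.31 and 5.29 with retinoic acid, and 5.03, 5.28, 5.50 and 5.71 with IL-1α, the first 2 of these not above background. All treated arrays were below all untreated ones. Here the IL-1α difference, at -0.98 (adjusted p = 0.00199), was larger in size than the retinoic acid difference of -0.73 (adjusted p = 0.00843), the reverse of the order in the brighter probe, and retinoic acid and IL-1α differed by 0.24 (adjusted p = 0.372).

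Gli3, chiefly a repressor when no ligand is present, was lower with IL-1α alone among the calls against untreated. Its probe ILMN_2449396 read 10.22, 9.80, 9.21 and 9.94 untreated, 9.81, 9.79, 9.35 and 9.56 with retinoic acid, and 9.21, 9.18, 8.93 and 9.39 with IL-1α. These groups overlapped. Gli3 was 1.53-fold lower with IL-1α (-0.61, standard error 0.14, adjusted p = 0.00483) and differed by -0.17 with retinoic acid (adjusted p = 0.38). Retinoic acid exceeded IL-1α by 0.45 (adjusted p = 0.0237), a call lost at adjusted p up to 0.102 without any 1 batch 1 array of either treatment or retinoic acid batch 2 replicate 1, and at adjusted p = 0.051 with no replicate block. The dimmer Gli3 probe, detected on 7 arrays, was called in no comparison.

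Sufu, which holds GLI proteins in the cytoplasm, read 6.47 to 6.89 untreated, 6.55 to 6.98 with retinoic acid and 6.53 to 6.97 with IL-1α, and its differences of 0.00 and 0.01 (standard error 0.13) had adjusted p of 0.991 and 0.965. The other Sufu probes were detected on 0 and 2 arrays. Gli1, the remaining GLI factor and a common readout of the pathway, read 4.39 to 4.56 on all 12 arrays, none above background, so no level or difference can be given for it.

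**Figure D3:**
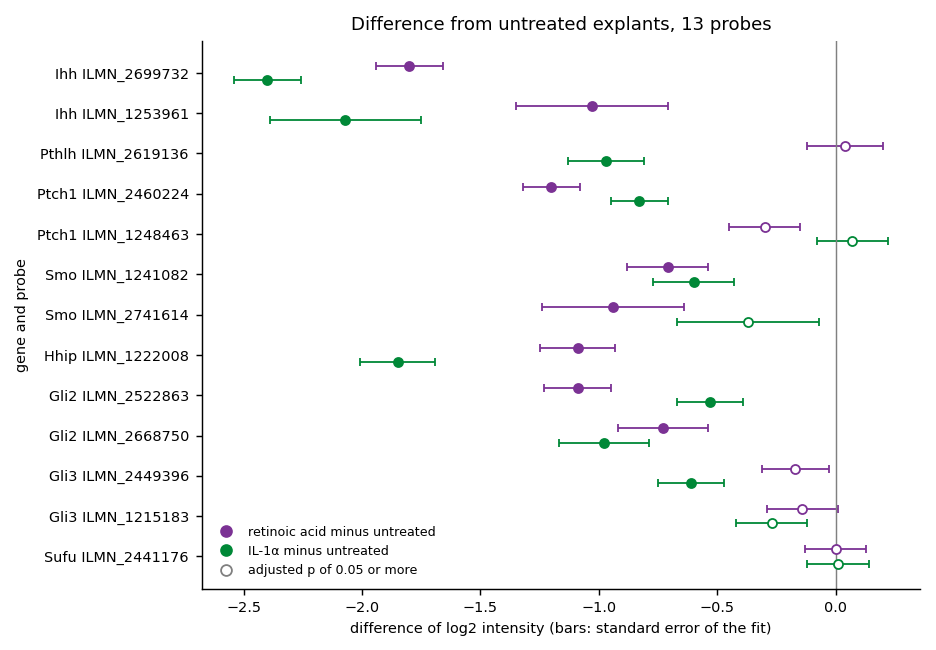
Difference of log2 intensity from untreated explants with the standard error of the fit for the 13 kept probes, retinoic acid in purple and IL-1α in green, filled where the adjusted p was under 0.05. Filled points all lie below 0, from -0.53 for Gli2 with IL-1α to -2.40 for Ihh with IL-1α.

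Set directly against each other, retinoic acid was higher than IL-1α for 5 of 13 probes (both Ihh probes, Pthlh, Hhip and Gli3) and lower for 2 (Ptch1 and Gli2), with 6 not called, against 15.2% of all kept probes higher and 15.8% lower. Both ligand genes and Hhip were thus lower with IL-1α, while the receptor Ptch1 and the brighter Gli2 probe were lower with retinoic acid. The median difference of the 13 was 0.13 and that of all kept probes -0.03. Retinoic acid arrays lay above all IL-1α arrays for 3 of 13 probes, those of Ihh (ILMN_2699732), Pthlh and Hhip, against 8.32% of all kept probes.

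The batches differed in the size of the response for 1 to 3 of the 13 probes, depending on the comparison. For retinoic acid against untreated 1 of 13 differed (Smo ILMN_2741614), against 2.7% of all kept probes. For IL-1α against untreated 3 of 13 differed, this Smo probe with Ihh ILMN_1253961 and Gli2 ILMN_2668750, against 5.32%. This Gli2 call was lost in 11 of 12 fits without 1 array. For retinoic acid against IL-1α 2 of 13 differed, those of Ihh and Gli2, against 9.76%. In both batches the 2 retinoic acid arrays lay below the 2 untreated ones for 7 of 13 probes, and the 2 IL-1α arrays for 8, against 19.6% and 15.4% of all kept probes. The Ihh difference with IL-1α by ILMN_1253961 was larger in size in batch 1 by 1.73, where the untreated level was also the higher one.

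**Figure D4:**
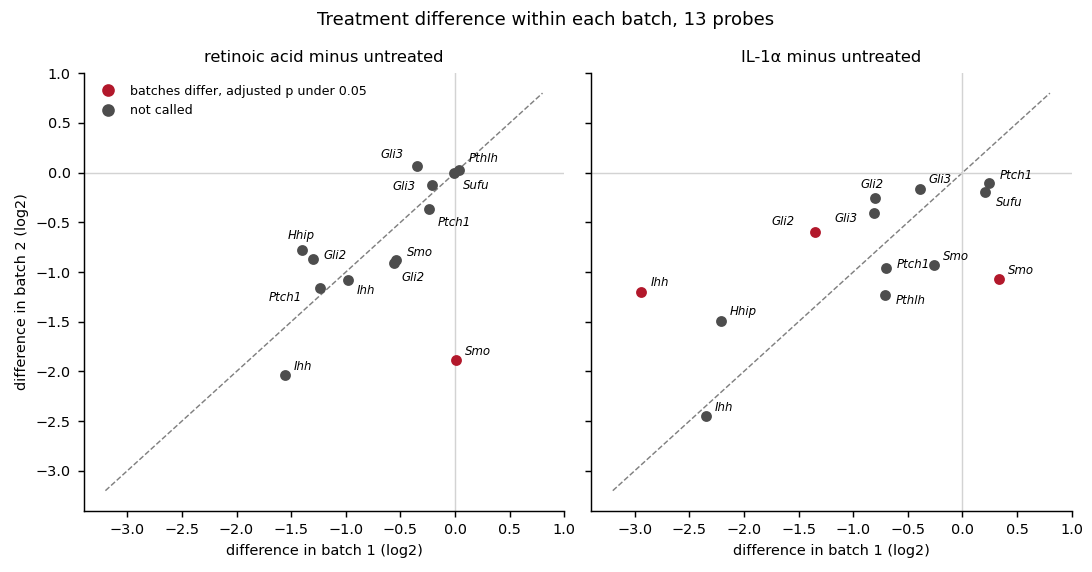
Difference of log2 intensity from untreated in batch 1 (horizontal) and batch 2 (vertical) for the 13 kept probes, with equal differences on the dashed line and probes whose batches differed at an adjusted p under 0.05 in red. One Smo probe stands off the line in both treatments, at 0.01 and -1.89 with retinoic acid, and one Ihh and one Gli2 probe with IL-1α. The Gli2 call was lost in 11 of 12 fits without 1 array.

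The other genes of these pathways moved in both directions. Of 73 further genes in 5 lists, 50 were measured, of which 18 were lower and 5 higher with retinoic acid, and 14 were lower and 7 higher with IL-1α, with 9 lower and 2 higher in both treatments. Of all 14317 genes taken by their brightest probe, 18.1% were lower and 18.6% higher with retinoic acid, 15% lower and 15.1% higher with IL-1α, and 8.42% lower and 6.27% higher in both, which share the untreated arrays. Their median difference was -0.22 with retinoic acid and -0.04 with IL-1α, beside 0.02 for all kept probes in each. Values follow for the 22 genes that also passed 1.5-fold in either treatment.

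Among genes for ligands and their release, Disp1, which frees lipid-modified Hedgehog from the cell that makes it, fell in both treatments. It read 8.67, 8.98, 8.74 and 8.68 untreated, 7.42, 7.40, 7.56 and 7.42 with retinoic acid and 7.85, 7.95, 8.23 and 8.09 with IL-1α, with no overlap among treatments. Its differences were -1.32 (adjusted p = 2.08e-06) and -0.74 (adjusted p = 0.000589). Scube3, one of the secreted proteins that carry the ligand away, moved in opposite directions, by -1.02 with retinoic acid (adjusted p = 0.00242), where it was detected on 1 of 4 arrays, and by 1.08 with IL-1α (adjusted p = 0.00245). Scube1 fell by 0.74 with retinoic acid (adjusted p = 0.00681). Hhat, which attaches palmitate to the ligand, rose by 0.76 with IL-1α (adjusted p = 0.00943). The other ligands, Shh and Dhh, were detected on 0 and 1 arrays and were not tested.

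At the cell surface 6 of 10 genes were measured. The co-receptor Cdon was lower in both treatments (-0.78, adjusted p = 0.0102, and -0.85, adjusted p = 0.00858). With retinoic acid its difference was -1.28 in batch 1 but -0.28 in batch 2. There the retinoic acid arrays (8.45 and 8.41) overlapped the untreated ones (8.30 and 9.12). With IL-1α the differences were -0.94 and -0.76. Ext1, an enzyme of heparan sulphate synthesis, was higher by 0.73 in each (adjusted p = 0.000599 with retinoic acid and 0.00101 with IL-1α), although its treated and untreated arrays overlapped across batches. Boc, Gpc3 and Mgrn1 were called in neither comparison.

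Of 23 genes for the cilium and the steps from Smo to GLI, 20 were measured, with 9 lower and 2 higher with retinoic acid and 5 lower and 0 higher with IL-1α. Genes for transport within the cilium were among the lower ones, such as Ift80 (-0.61 with retinoic acid and -0.40 with IL-1α, adjusted p = 0.00146 and 0.0234) and Ift88, named Tg737Rpw on the array (-0.92 and -0.60, adjusted p = 0.000392 and 0.00953). Evc, which works with Smo at the base of the cilium, was lower by -0.72 and -0.74 in difference (adjusted p = 0.000363 and 0.000541). Dync2h1, the motor of the return journey, was lower with retinoic acid only among the calls made (-0.73, adjusted p = 0.000387, against 0.06 with IL-1α, adjusted p = 0.743). The kinases Ulk3 (-0.67 with retinoic acid, adjusted p = 0.0158) and Stk36 (-0.71 with IL-1α, adjusted p = 0.0251) were each called in 1 treatment. The Stk36 difference with IL-1α was -1.25 in batch 1 but -0.17 in batch 2, with its probe detected on 2 of 4 IL-1α arrays. Tulp3 was higher with retinoic acid (0.67, adjusted p = 0.00898).

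Of 14 genes known as GLI targets in other tissues, 8 were measured, with 1 lower and 1 higher with retinoic acid and 3 lower and 1 higher with IL-1α, the share in each direction with retinoic acid being below that over all genes. Cyclin D2 (Ccnd2) was lower in both (-1.46, adjusted p = 1.49e-05, and -0.87, adjusted p = 0.00164), with all treated arrays below all untreated ones, although 1 of its 4 probes was called in neither comparison. Cyclin D1 (Ccnd1) was lower with IL-1α (-1.12, adjusted p = 0.000341) and gave -0.42 with retinoic acid (adjusted p = 0.0682). Its 5 probes disagreed, with 3 lower with IL-1α and 2 lower with retinoic acid. Igfbp6 was lower with IL-1α (-0.67, adjusted p = 0.00288) and the activin antagonist follistatin (Fst) was higher (0.70, adjusted p = 0.00167). Foxc2 was higher with retinoic acid by 0.92 (adjusted p = 0.0353), with differences of 0.10 in batch 1 and 1.75 in batch 2. Its probe was detected on only 2 arrays of each treatment. Batch 1 arrays read 4.46 to 4.72 across all treatments, near background. The batch 1 difference therefore cannot show a response or its absence.

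Of 20 genes for the PTHrP receptor and its downstream steps, 13 were measured, with 4 lower and 1 higher with retinoic acid and 4 lower and 3 higher with IL-1α, the higher calls with retinoic acid being a smaller share than over all genes. The receptor gene Pth1r, named Pthr1 on the array, read 11.25, 11.34, 10.18 and 10.03 untreated, 10.13, 10.18, 8.23 and 8.52 with retinoic acid, and 9.97, 10.06, 9.08 and 9.16 with IL-1α. Treated arrays were below the untreated arrays of their own batch throughout. Its differences were -1.44 (adjusted p = 2.09e-05) and -1.14 (adjusted p = 0.000277), and a second probe gave -1.62 and -1.01.

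Mef2c, a driver of hypertrophy that PTHrP signalling restrains, was lower by 2.96-fold with retinoic acid and 2.34-fold with IL-1α (-1.57, adjusted p = 3.27e-05, and -1.23, adjusted p = 0.000436). Zfp521, a PTHrP-induced regulator of chondrocyte maturation, was lower too (-0.69, adjusted p = 0.00154, and -0.96, adjusted p = 0.000215), while its dimmer probe was called in neither comparison (-0.15 and -0.34). Pde4d, which degrades the cAMP made on receptor activation, was higher (1.01, adjusted p = 0.00335, and 0.69, adjusted p = 0.034). With IL-1α the Pde4d difference was 1.28 in batch 1 but 0.11 in batch 2, and its arrays overlapped the untreated ones. The Pde4d probe was detected on 2 of 4 untreated arrays. The genes for parathyroid hormone (Pth) and its second receptor (Pth2r) were detected on 0 arrays.

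**Figure D5:**
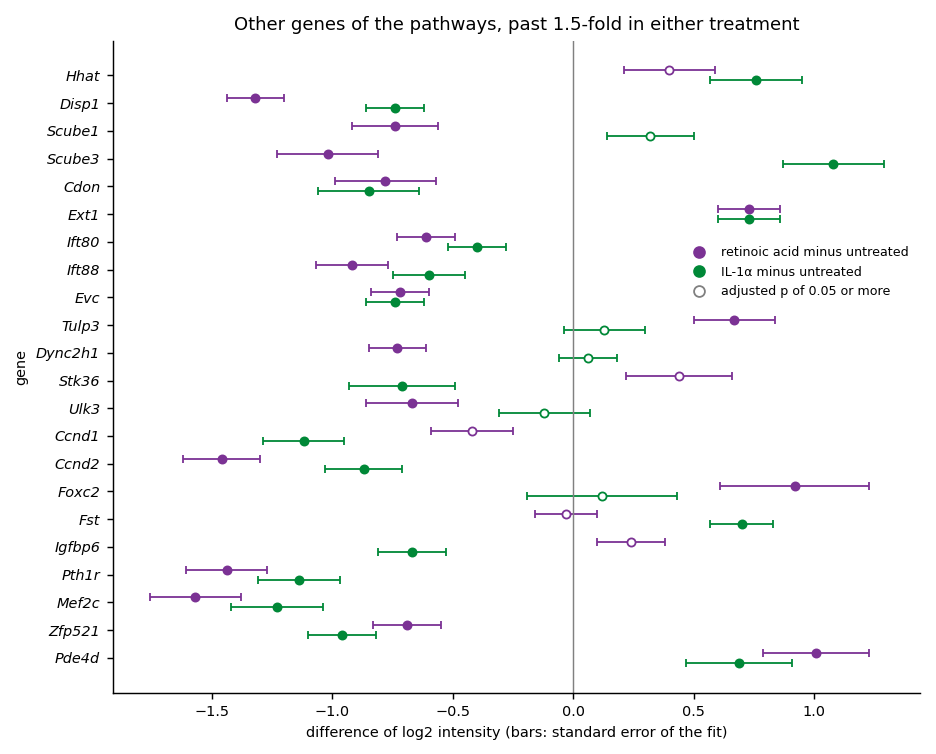
Difference of log2 intensity from untreated explants with the standard error of the fit for the 22 other pathway genes past 1.5-fold in either treatment, by the brightest kept probe of each, retinoic acid in purple and IL-1α in green, filled where the adjusted p was under 0.05. Mef2c with retinoic acid (-1.57) and Scube3 with IL-1α (1.08) lie at the ends of the range.

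For the 8 genes with a kept probe, the probes most like the brightest one in pattern were found by Pearson's r over the 12 arrays. Log2 values were first centred within each batch and replicate number, so differences in level between batches do not enter r. The arrays share treatments, and r is given as a description. For Ihh (ILMN_2699732) these were Phex at 0.993, a gene of mineralising cells, and C1qtnf3 at 0.992, whose differences were -3.73 with retinoic acid and -4.96 with IL-1α. For Ptch1 they were Itm2a at 0.992 and Clmn at 0.991, and for Hhip Serpinf1 at 0.987. For Pthlh they were Hist1h2an at 0.971, Cenpa at 0.97, Pdlim2 at 0.965, Cdca2 at 0.964 and Aoc3 at 0.963. Cenpa and Cdca2 are genes of cell division, whereas Pdlim2 and Aoc3 are not. For Sufu no probe passed 0.909. Among the 13 probes themselves, after the same centring, Ihh (ILMN_2699732) and Hhip correlated at 0.939 and Ptch1 and Gli2 (ILMN_2522863) at 0.891.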

How the data were processed

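The files hold, per array and probe, a raw bead intensity as the authors exported it, not normalised, and a detection score as deposited, which rose with intensity and was read as 1 minus a detection p-value. RNA was amplified to biotin-labelled cRNA, and raw medians were 34.3 to 63.3. The number of arrays limits the precision. Other export steps are not given in the sources used here, and the submitters' processing notes name limma.

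After the study's methods, intensities were corrected and quantile normalised with neqc (limma 3.58.1 in R 4.3.3, offset 16, log2). The 18200 probes detected (p under 0.05) on 4 or more arrays were used. lmFit and eBayes were run on them with a term for treatment and a block of 4 levels, one for each batch and replicate number, and with Benjamini-Hochberg adjustment over all kept probes. Differences between batches came from a treatment-by-batch term. The scripts were tested on simulated data. Where a probe was not detected on any array of a group, the fold is a bound. A gene in a list is represented by its brightest kept probe, and list genes were named past an adjusted p of 0.05 and 1.5-fold. The members and lists were chosen with earlier results of these data known. The replicate numbers did not clearly pair the arrays (correlations of replicate differences between treatments -0.11 to 0.39), and the block was kept because the study's methods use it. Alternatives covered background correction, scaling, offset, filter, block, batch and each array left out. The culture notes and the study's methods differ on serum. Single values of some list genes are not reported here.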

Additional observations from a re-analysis of the deposited data

Results flagged for a closer look

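In 2 of 105 groups of 4 arrays a single array stood far from the others, where chance gives about 1 in 20. Disp1 with retinoic acid read 7.56 in batch 2 replicate 1 against 7.42, 7.40 and 7.42 (gap over range 0.871). Dync2h1 (ILMN_1258718) with retinoic acid read 7.49 in the same sample against 7.85, 7.86 and 7.83 (0.904).

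For 19 of 105 treatment differences the 2 batches, which are also the 2 lines, differed by the treatment-by-batch term of limma. Over all kept probes the shares were 2.7% for retinoic acid and 5.32% for IL-1α against untreated, and 9.76% between the treatments. The pathway genes counted here had been picked by their treatment differences in these data. All values below are batch 2 minus batch 1 on the log2 scale. Among the members, Ihh (ILMN_1253961) differed by 1.73 for IL-1α against untreated (adjusted p = 0.00688) and by -1.83 for retinoic acid against IL-1α (adjusted p = 0.00266). Smo (ILMN_2741614) differed by -1.90 for retinoic acid (adjusted p = 0.00101) and by -1.40 for IL-1α (adjusted p = 0.00623), each against untreated. Gli2 (ILMN_2668750) differed by 0.75 for IL-1α against untreated (adjusted p = 0.0445) and by -1.09 for retinoic acid against IL-1α (adjusted p = 0.00521). The first of these 2 Gli2 calls was lost in 3 of 3 other settings, at adjusted p up to 0.398, and in 11 of 12 fits without 1 array.

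Among the other pathway genes, the difference of retinoic acid against untreated varied between batches for Foxc2 (1.66, adjusted p = 0.00799) and Mef2c (-0.94, adjusted p = 0.0215). That of IL-1α against untreated varied for Scube3 (-1.09, adjusted p = 0.0264), Stk36 (1.08, adjusted p = 0.0325) and Pde4d (-1.17, adjusted p = 0.0299). That of retinoic acid against IL-1α varied for Scube1 (-0.91), Scube3 (1.04), Stk36 (-1.01), Ccnd1 (0.91), Foxc2 (1.78), Pth1r (-0.88), Mef2c (-1.04) and Pde4d (0.97), with adjusted p from 0.00283 for Foxc2 to 0.044 for Pde4d. Foxc2 read 4.46 to 4.72 on batch 1 arrays of all treatments, near background. Its batch 1 differences therefore cannot show a response or its absence. The part of batch, line or probe in all these differences between batches was not tested and, for batch and line, cannot be told apart.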

How the results depend on the processing

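Some calls held under every setting of background, scaling, offset and filter in which the probe was tested, with no replicate block, and without any 1 array. These were lower Ihh (ILMN_2699732), Ptch1 (ILMN_2460224) and Hhip in both treatments, lower Pthlh with IL-1α and lower Gli2 (ILMN_2522863) with retinoic acid. Lower Ihh (ILMN_1253961), Gli2 (ILMN_2668750) and Gli3 (ILMN_2449396) with IL-1α were also among them. Between the treatments, the calls for Ihh (ILMN_2699732), Pthlh and Hhip, with IL-1α the lower, held as well. The batch term was kept in all of those settings. Over all called differences of the 13 probes, 194 of 208 values under those settings kept their call and direction and 14 lost the call, with 0 reversed. Without 1 array 261 of 288 did and 27 lost it. Within 1 batch, or with no batch term, 51 of 72 did, 20 lost it and 1 reversed: Smo (ILMN_2741614) with retinoic acid was 0.01 in batch 1 only. Those lost with no detection filter were Ihh (ILMN_1253961), Gli2 (ILMN_2668750) and Smo (ILMN_2741614) with retinoic acid, Smo (ILMN_1241082) with IL-1α, and retinoic acid against IL-1α for Ihh (ILMN_1253961) and Gli3. Median scaling ended both Smo calls with retinoic acid, those of Smo and Gli2 (ILMN_2522863) with IL-1α and those of Ptch1 and Gli2 between treatments.

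Median scaling gave 3104 called probes for IL-1α against untreated (5334 at first) and 0 of the 13 probes lower with retinoic acid than with IL-1α. It also moved the median of all kept probes for retinoic acid against untreated from 0.02 to 0.14 and the share of higher calls from 51.6% to 65.6%, and for retinoic acid against IL-1α from 49% to 65.6%, while 6 and 7 of 13 probes were still lower with retinoic acid and IL-1α than untreated and 0 higher. Without a detection filter, or with detection on all 12 arrays, which leaves 8 probes, 5 were lower with retinoic acid (8 at first) and 3 exceeded IL-1α with retinoic acid (5 at first). With treatment alone in the fit, 2215, 1327 and 1984 probes were called for retinoic acid, IL-1α and one against the other (6436, 5334 and 5656 at first), with 4 and 4 of the 13 lower than untreated and with 0 below and 3 above IL-1α in retinoic acid. Ptch1 with IL-1α was among the calls so lost (adjusted p = 0.071). In batch 2 only, IL-1α against untreated gave 2973 calls and retinoic acid exceeded IL-1α for 2 of the 13. Normalisation within each batch left 1 probe, of 3 at first, whose IL-1α difference varied between batches.

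Without 1 array, retinoic acid was above IL-1α for 3 to 5 probes and below it for 1 to 3, and 0 to 6 and 1 to 2 probes varied between batches for IL-1α against untreated and for retinoic acid against IL-1α, this test being added after seeing the data. The count of 0 was without untreated batch 1 replicate 1 and that of 6 without untreated batch 2 replicate 2. With no replicate block, 6752, 5702 and 5938 probes were called and the members' counts against untreated stayed at 8 and 9, while those above IL-1α with retinoic acid went from 5 to 4 as Gli3 was lost (adjusted p = 0.051). The replicate numbers are not known to pair the arrays.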
